A study of Mus musculus with 18 samples.

Results

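Mitotic kinesins are microtubule motor proteins that build the spindle, move and align chromosomes on it, and divide the cell once the chromosomes have separated. The genes described here are Kif11, Kif15, Kif18a, Kif18b, Kif20a, Kif20b, Kif22, Kif23, Kif2c and Kif4. They were taken by name, as the rows of the gene count table whose Ensembl identifiers carry these 10 symbols, out of 51912 genes in all. All 10 were among the 15710 genes with enough counts to be tested.

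Transcript levels were measured by RNA sequencing of primary mouse embryonic fibroblasts (MEFs), cells grown out of mid-gestation embryos, at passage 1 and in 5% oxygen. The study compared loss of Pole4, a small accessory subunit of DNA polymerase epsilon, with loss of Trp53, the gene of the tumour suppressor p53, and with loss of both. Cells that kept both alleles of Pole4 (Pole4+/+) and cells that had none (Pole4-/-) were each taken with both Trp53 alleles (Trp53+/+), with 1 (Trp53+/-) and with none (Trp53-/-). This makes 6 genotypes of 3 libraries and 18 libraries in all. No group was treated. The embryos came from crosses of C57BL/6 mice heterozygous for both genes, so the null alleles were present from conception and in every cell.

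In a dividing cell, most of these kinesins are made as the cell passes from S phase into mitosis and are degraded or cleared as it leaves, so that a resting cell holds little of their transcripts. Their promoters belong to the class that the DREAM complex, a repressor assembled in resting or arrested cells, is known to silence; p53 acts on this class indirectly, through p21, the product of Cdkn1a. DREAM is known to reach DNA through the cell cycle genes homology region (CHR), whose core is TTTGAA, and through E2F sites, while NF-Y, an activator, is known to bind CCAAT boxes.

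Because the members turned out to move together, stretches of their promoters are shown, chosen so that each combination of elements found among the members has an example. RefSeq promoter windows of GRCm38.p6, from 250 bases before to 50 after the annotated transcript start, were found for 9 of the 10 members. Each window was searched on both strands for TTTGAA, for CCAAT and for the E2F letters TTTGGCGC, TTTCCCGC, TTTGCCGC and TTTCGCGC. The lines below run from 80 bases before to 50 after the start, 5′ to 3′ on the gene's strand, with matches in capitals; on the other strand the CHR core reads as TTCAAA, the CCAAT box as ATTGG and the E2F letters found here as GCGCCAAA. In Kif15 the E2F letters and TTCAAA lie end to end, as do both TTTGAA matches of Kif20b, and no matches overlap.
Kif11 (chr19:37376302-37376431, plus strand), CCAAT and TTTGAA: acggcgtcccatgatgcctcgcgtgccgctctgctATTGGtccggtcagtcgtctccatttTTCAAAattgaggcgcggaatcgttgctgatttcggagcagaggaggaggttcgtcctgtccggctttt
Kif18b (chr11:102925075-102925204, minus strand), CCAAT and TTTGAA: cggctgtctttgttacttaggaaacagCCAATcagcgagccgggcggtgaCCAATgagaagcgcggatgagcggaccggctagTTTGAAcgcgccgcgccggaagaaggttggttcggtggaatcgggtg
Kif22 (chr7:127042371-127042500, minus strand), CCAAT and TTTGAA: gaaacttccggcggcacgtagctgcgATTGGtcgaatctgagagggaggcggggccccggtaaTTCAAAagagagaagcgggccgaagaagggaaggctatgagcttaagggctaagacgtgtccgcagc
Kif23 (chr9:61946750-61946879, minus strand), CCAAT and TTTGAA: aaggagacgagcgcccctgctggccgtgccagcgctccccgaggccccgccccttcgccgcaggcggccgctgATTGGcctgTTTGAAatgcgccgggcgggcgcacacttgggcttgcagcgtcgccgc
Kif15 (chr9:122951001-122951130, plus strand), E2F letters and TTTGAA: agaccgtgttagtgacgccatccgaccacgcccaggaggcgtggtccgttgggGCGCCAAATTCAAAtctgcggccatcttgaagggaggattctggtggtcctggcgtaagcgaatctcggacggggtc
Kif20b (chr19:34922278-34922407, plus strand), TTTGAA alone: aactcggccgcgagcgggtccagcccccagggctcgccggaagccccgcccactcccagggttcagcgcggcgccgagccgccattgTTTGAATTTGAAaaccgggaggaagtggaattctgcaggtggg
Kif18a (chr2:109280658-109280787, plus strand), E2F letters alone: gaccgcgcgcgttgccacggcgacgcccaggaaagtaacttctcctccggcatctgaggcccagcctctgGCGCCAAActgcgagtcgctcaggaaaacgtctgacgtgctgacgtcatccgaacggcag

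TTTGAA was found in 8 of the 9 windows, which is 88.9% of them, against 17.9% of all 32851 windows in the table. Of these 8, the Kif2c window lies inside its gene: the stretch around its start is chr4:117178723-117178852, and the minus-strand gene begins at 117182639. That outer start was not searched. It was also found in 7 of 9 windows (77.8%) of the midzone and cytokinesis partners described further on, and in 2 of 6 (33.3%) of other kinesins with a spindle role. Within 50 bases of the start it was found in 7 of the 9 members, or 77.8%, against 4.94% of all windows. A CCAAT box was in 5 of the 9 (55.6%, against 37.4% of all), and these were the 5 windows that held both elements, which 6.95% of all windows did. CCAAT was in 5 of 6 windows (83.3%) of the other spindle kinesins, a larger share than among the members. The E2F letters were in 2 of the 9, Kif15 and Kif18a, against 2.26% of all windows. Kif18a was the member whose window held neither TTTGAA nor CCAAT. These are matches of letters, not measured binding.

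**Figure D1:**
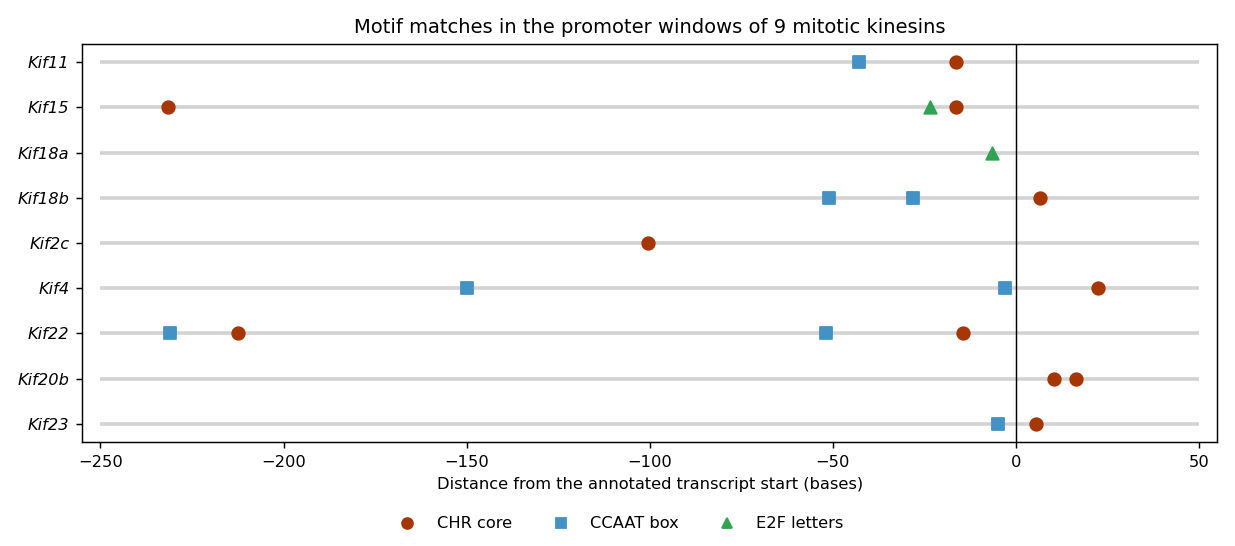
Matches to the CHR core, the CCAAT box and the E2F letters, by their distance in bases from the annotated transcript start (0 on the axis), in the promoter windows of the 9 members that have one. A CHR core match lies within 50 bases of the start in 7 members, of which Kif15 and Kif22 have a further match far upstream. The match of Kif2c lies upstream of these 50 bases, in a window that lies inside the annotated gene. Kif18a shows only the E2F letters.

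The libraries held 9535971 to 35319918 expected counts (median 22781543), of which ribosomal RNA genes took from 0.968% to 42.5%. Trp53 fell from 86.6 to 96.1 CPM (counts scaled to library size, with edgeR's TMM factors) in Pole4+/+ Trp53+/+ to 8.65 to 12 CPM in Pole4+/+ Trp53-/-, and Cdkn1a from 232 to 251 CPM to 5.66 to 12 CPM. Pole4 stood at 16.3 to 23.1 CPM in the Pole4+/+ libraries with at least 1 Trp53 allele and at 9.26 to 12 CPM in the 9 Pole4-/- libraries. Replicate 1 of Pole4+/+ Trp53-/- stood apart: its Pole4 level was 14.2 CPM against 25.4 and 26.4 CPM in replicates 2 and 3, and its mitotic kinesins were low, so results of the members, and counts of the other lists, that rest on it are given with and without it. Judged by Xist and Y-linked genes, 7 libraries were male: all 3 of Pole4+/+ Trp53+/-, 2 of Pole4-/- Trp53+/+, 1 of Pole4-/- Trp53+/- and 1 of Pole4-/- Trp53-/-. The 10 fibroblast markers summed to 13717 to 30956 CPM in every library, while macrophage markers summed to 4.02 to 46.3 CPM, epithelial to 2.02 to 20.2, endothelial to 1.4 to 5.57 and erythroid to 0 to 1.86. Skeletal muscle markers summed to 46.3 to 203 CPM and neuronal ones to 66.2 to 145 CPM.

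Across the 18 libraries, the 10 transcripts together made up 234 to 837 CPM, the lowest in a Pole4-/- Trp53+/+ library and the highest in a Pole4-/- Trp53-/- library. Levels per kilobase divide by all annotated exon bases of a gene, merged over its transcripts, so exon not used in these cells lowers a gene's value. The order of genes thus depends in part on annotation. On this scale Kif20a had the highest mean level, 22.4 CPM per kb. It was followed by Kif11 at 10.2, Kif4 at 8.48, Kif20b at 8.31 and Kif2c at 8.23 CPM per kb. Kif23, Kif22 and Kif18b had 7.01, 6.39 and 5.98 CPM per kb, and Kif15 and Kif18a were lowest at 3.23 and 1.81 CPM per kb.

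Their proportions to each other changed less than their total did. Kif20a made up 25.7% to 31% of the length-scaled sum in every library, Kif11 11.3% to 13.3% and Kif18a 1.87% to 3.33%. All 10 members had the same order of genotype means: Pole4-/- cells with both Trp53 alleles lowest and those with 1 next, then Pole4+/+ cells with 2, 1 and 0 Trp53 alleles, and Pole4-/- cells without Trp53 highest. The top of this order rested on replicate 1 of Pole4+/+ Trp53-/-: without it, Pole4+/+ cells without Trp53 had the highest mean in 4 of the 10 members (Kif18b, Kif22, Kif23 and Kif2c) and Pole4-/- cells without Trp53 in the other 6. Neighbours in that order were not all separate. Between the lowest and the next genotype the library values of 1 of the 10 members overlapped (Kif18a). Of all genes 21.4% stood apart in that direction at this step. At the following 4 steps 10, 10, 8 and 9 of the 10 overlapped, and the shares of all genes were not counted there.

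**Figure D2:**
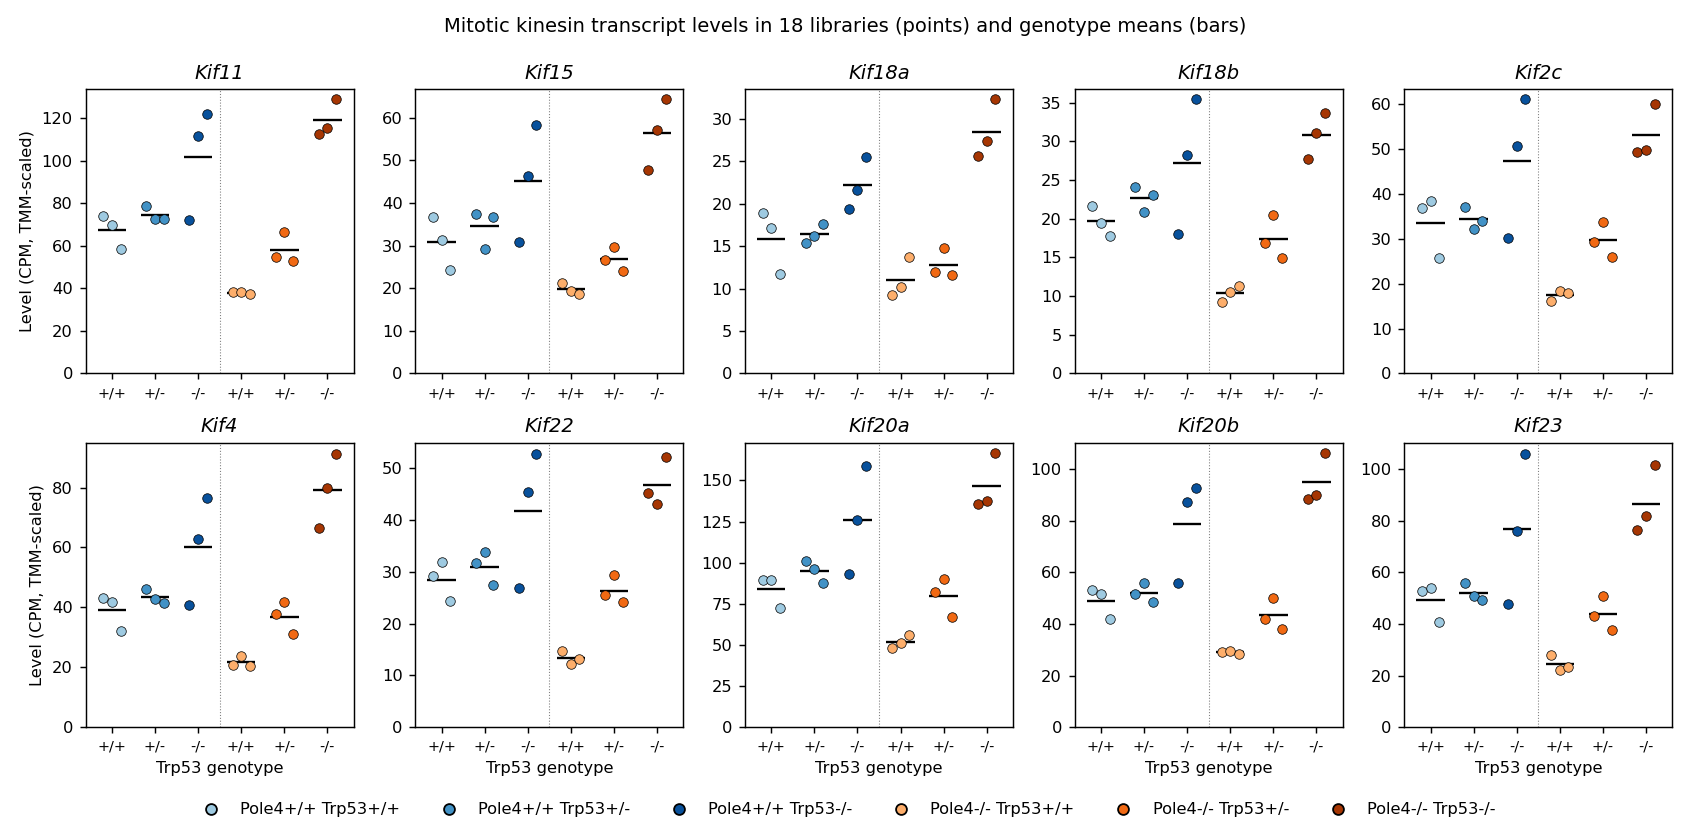
Level of each mitotic kinesin in CPM (vertical axis, from 0) by Trp53 genotype, Pole4+/+ on the left of each panel in blue and Pole4-/- on the right in orange, with 1 point per library and a bar at the mean of 3. In every panel the 3 Pole4-/- Trp53+/+ points lie lowest or among the lowest and the Pole4-/- Trp53-/- points highest or among the highest, and the Pole4+/+ Trp53-/- points of Kif11 are spread from 72.2 to 122 CPM.

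Pole4-/- cells without Trp53 had higher levels of every mitotic kinesin than Pole4-/- cells with both alleles, by the largest median of the 9 genotype comparisons. All 10 were called higher, against a background of 21.8% of the 15710 genes called higher in the same comparison, and in all 10 the libraries of the genotypes did not overlap, as for 28.5% of all genes. The log2 fold changes ran from 1.39 (Kif18a) to 1.87 (Kif4), with a median of 1.63 beside -0.02 for all genes. A gene is called where its adjusted p, from edgeR's quasi-likelihood test with Benjamini-Hochberg adjustment over all genes tested, is under 0.05.

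Kif11 and Kif15 push the spindle poles apart: Kif11 (the motor also called Eg5) slides antiparallel microtubules, and Kif15 can take over part of that work. Kif11 lies on chromosome 19 at 37376403 to 37421859 and Kif15 on chromosome 9 at 122951046 to 123018733 (GRCm38, as all gene positions here). Kif11 stood at 38.2, 38.2 and 37.3 CPM in the Pole4-/- Trp53+/+ libraries and at 113, 115 and 129 CPM in the Pole4-/- Trp53-/- libraries. The 3 libraries without Trp53 were all about 3 times above those with it, a difference of 1.65 ± 0.16 (log2 fold change ± SE) with an adjusted p of 3.57e-06. Kif15 stood at 21.2, 19.4 and 18.7 CPM with Trp53 and at 47.8, 57.1 and 64.4 CPM without it. Its log2 fold change was 1.51 ± 0.20 (adjusted p = 5.24e-05).

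Kif18a, Kif18b and Kif2c act at microtubule ends. Kif18a dampens the swings of chromosomes at the metaphase plate, Kif18b shortens astral microtubules, and Kif2c (also called MCAK) removes tubulin from the ends at centromeres and helps correct wrong attachments. Kif18a (chromosome 2, 109280738 to 109341747) stood at 9.25, 10.2 and 13.7 CPM in Pole4-/- Trp53+/+ and at 25.6, 27.4 and 32.3 CPM in Pole4-/- Trp53-/-. It had the smallest difference of the 10, 1.39 ± 0.18 (adjusted p = 4.47e-05), and its highest library with Trp53 was still well under its lowest without. Kif18b (chromosome 11, 102905529 to 102925124) stood at 9.29, 10.5 and 11.2 CPM against 27.7, 31 and 33.6 CPM, a log2 fold change of 1.58 ± 0.20 (adjusted p = 2.59e-05). Kif2c (chromosome 4, 117159639 to 117182639) stood at 16.2, 18.3 and 17.9 CPM against 49.2, 49.8 and 60.1 CPM, a log2 fold change of 1.61 ± 0.21 (adjusted p = 4.35e-05). These 3 genes of motors at microtubule ends differed by 2.61 to 3.04 times in fitted fold.

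Kif4 and Kif22 are chromokinesins, which ride on chromosome arms and push them towards the plate; Kif4 also works with condensin and with Prc1 on the midzone. Kif4 (chromosome X, 100625737 to 100727214) stood at 20.8, 23.9 and 20.5 CPM in Pole4-/- Trp53+/+ and at 66.6, 79.9 and 91.3 CPM in Pole4-/- Trp53-/-. Its log2 fold change of 1.87 ± 0.20 (adjusted p = 8.66e-06), a fold of 3.65, was the largest of the 10. Kif22 (chromosome 7, 127027729 to 127042471) stood at 14.7, 12.3 and 13.1 CPM against 45.2, 43.2 and 52.2 CPM, a log2 fold change of 1.80 ± 0.20 (adjusted p = 1.10e-05). In neither gene did any library cross between the genotypes. The counting was not stated to use strand, and 15.1% of the exon bases of Kif4 overlap Pdzd11 on the other strand (2.0% or less for Kif22 with Gm31749 and Kif18a with Mettl15). Pdzd11, named here for that overlap, had a log2 fold change of 0.06 ± 0.09 (adjusted p = 0.666).

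Kif20a, Kif20b and Kif23 work on the midzone, the bundle of microtubules between the separating chromosomes, and in cytokinesis. Kif20a carries the chromosome passenger complex to it, Kif23 forms the centralspindlin complex with Racgap1, and Kif20b is needed for the last step of separation. Kif20a (chromosome 18, 34624613 to 34633277) stood at 48, 51.1 and 55.9 CPM in Pole4-/- Trp53+/+ and at 135, 137 and 167 CPM in Pole4-/- Trp53-/-. Its log2 fold change was 1.51 ± 0.16 (adjusted p = 1.15e-05). Of its exon bases 29.3% overlap Cdc23 on the other strand, a gene of the anaphase-promoting complex named here for the overlap, which had a log2 fold change of 0.45 ± 0.07 (adjusted p = 0.000189) at a mean of 57.6 CPM.

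Kif20b (chromosome 19, 34922361 to 34975745) stood at 29.0, 29.6 and 28.5 CPM with Trp53 and at 88.5, 89.9 and 106 CPM without it, both in Pole4-/- cells. Its log2 fold change was 1.71 ± 0.16 (adjusted p = 3.96e-06). Kif23 (chromosome 9, 61915905 to 61946774) stood at 27.8, 22 and 23.2 CPM against 76.3, 81.9 and 101 CPM, a log2 fold change of 1.82 ± 0.22 (adjusted p = 2.81e-05). The 3 midzone motors thus differed by 2.84 to 3.54 times in fitted fold, a range that held the spindle pole and chromosome arm motors Kif11, Kif15 and Kif22 as well.

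In bulk RNA, a larger share of cells in or near mitosis and more transcript per such cell cannot be told apart. Beside the rise, Mki67, a proliferation marker, went from 224.6 ± 7.9 CPM (SD, n = 3) in Pole4-/- Trp53+/+ to 703 ± 106 CPM (SD, n = 3) in Pole4-/- Trp53-/-. All 5 proliferation markers on the list that holds it were called higher in this comparison, with a median log2 fold change of 1.65. The summed level of the 10 members divided by that of Mki67 lay between 1.01 and 1.13 in all 18 libraries, with genotype means of 1.04 to 1.08. The ribosomal RNA share was 24.7% to 30.0% in the Pole4-/- Trp53-/- libraries and 7.11% to 42.5% in Pole4-/- Trp53+/+, fibroblast markers summed to 13717 to 16519 CPM against 24894 to 30956 CPM (5 of 10 called lower and 1 higher), and epithelial markers to 4.40 to 20.2 CPM against 2.02 to 2.67 CPM (2 of 2 tested called higher). Skeletal muscle markers summed to 54.9 to 70.9 CPM against 140 to 151 CPM (2 of 6 called lower), and neuronal markers to 122 to 145 CPM against 76.8 to 96.1 CPM (2 of 3 tested called higher). Their part in the result was not tested. All 10 were called under every alternative fit tried and with any 1 library left out. Of all genes 11.1% to 26.4% were called higher in the alternative fits, and 17% to 19.9% with 1 library left out.

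**Figure D3:**
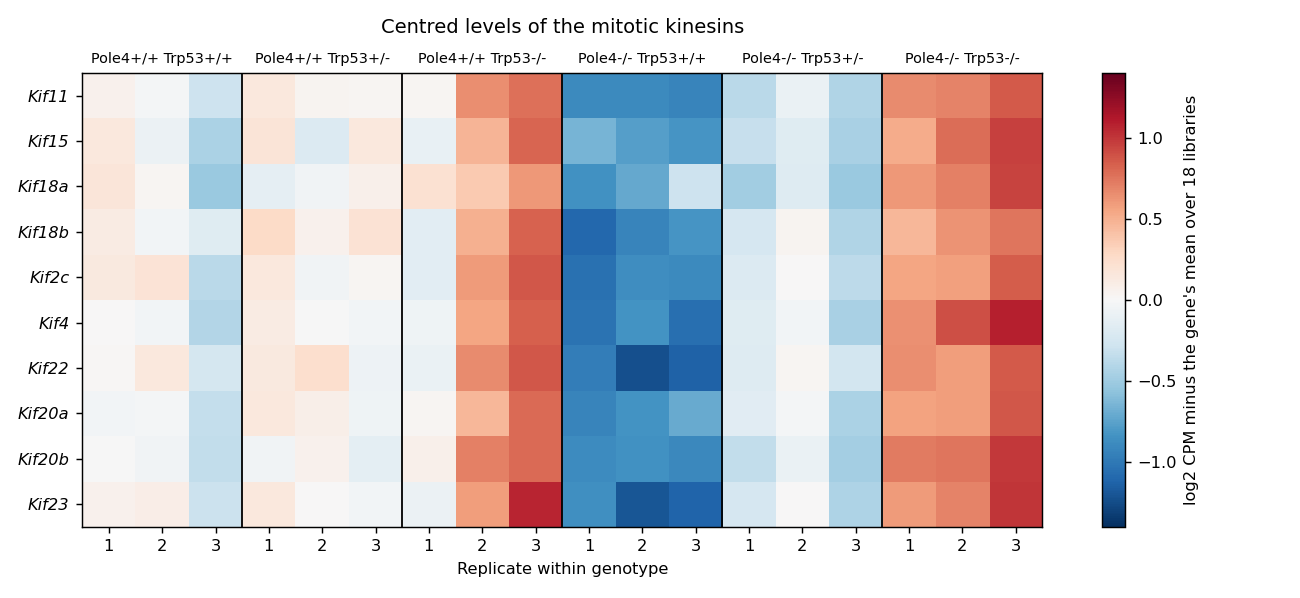
Log2 CPM of each mitotic kinesin minus its mean over the 18 libraries (colour scale, blue below and red above the mean), with members in rows and libraries in columns by genotype and replicate number. The Pole4-/- Trp53+/+ columns are blue and the Pole4-/- Trp53-/- columns red for all 10 members, and replicate 1 of Pole4+/+ Trp53-/- is paler than replicates 2 and 3.

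In Pole4+/+ cells the same Trp53 comparison gave smaller differences. Of the 10 members 3 were called higher, Kif11, Kif20a and Kif20b, against 2.23% of all genes, and in 3 the libraries did not overlap, Kif18a, Kif20a and Kif20b, against 8.24% of all genes. Log2 fold changes ran from 0.46 (Kif18b) to 0.68 (Kif20b) with a median of 0.56, beside 0.03 for all genes, and all 10 had an unadjusted p under 0.05. Skeletal muscle markers summed to 46.3 to 51.6 CPM without Trp53 against 115 to 152 CPM with it (2 of 6 called lower), and neuronal markers to 99.8 to 137 CPM against 66.2 to 85.8 CPM (0 of 3 called). Their part in the result was not tested.

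Kif11 stood at 73.9, 69.7 and 58.3 CPM in Pole4+/+ Trp53+/+ and at 72.2, 112 and 122 CPM in Pole4+/+ Trp53-/-, so that replicate 1 without Trp53 lay within the range of the libraries with it. Its log2 fold change was 0.60 ± 0.15 (adjusted p = 0.0337). Kif20a stood at 89.2, 89.7 and 72.6 CPM against 93.4, 126 and 159 CPM, a log2 fold change of 0.58 ± 0.16 (adjusted p = 0.0492). Kif20b stood at 53.1, 51.6 and 42.0 CPM against 55.9, 87.3 and 92.7 CPM, a log2 fold change of 0.68 ± 0.16 (adjusted p = 0.0208). In both of these, replicate 1 of Pole4+/+ Trp53-/- exceeded the highest Pole4+/+ Trp53+/+ library only narrowly.

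The other 7 were not called. Their intervals, which are not adjusted for the number of genes, lay above 0, as the unadjusted p under 0.05 already says. Kif15 stood at 24.4 to 36.7 CPM with Trp53 and at 31, 46.3 and 58.4 CPM without it, with a log2 fold change of 0.54 ± 0.20 (adjusted p = 0.125). Kif18a stood at 11.7 to 18.8 CPM against 19.4, 21.6 and 25.5 CPM, with a log2 fold change of 0.47 ± 0.18 (adjusted p = 0.139). For these and the remaining 5 the adjusted p lay between 0.0713 and 0.192.

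Kif18b had a log2 fold change of 0.46 ± 0.18 (18.1, 28.3 and 35.4 CPM without Trp53), and Kif2c of 0.49 ± 0.20 (30.2, 50.6 and 61.0 CPM). Of the chromokinesins, Kif4 had 0.62 ± 0.19 (40.9, 62.9 and 76.6 CPM) and Kif22 0.54 ± 0.19 (26.9, 45.5 and 52.9 CPM). Kif23 had 0.63 ± 0.22 with libraries at 47.9, 76.0 and 106 CPM. In each of these 5 genes the first of the Pole4+/+ Trp53-/- values lay within the Pole4+/+ Trp53+/+ range, and the other two lay above it.

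The call therefore rested on single libraries. Without replicate 1 of Pole4+/+ Trp53-/-, 9 of the 10 members were called higher (all but Kif18a) and the median log2 fold change was 0.74; without replicate 2 or 3 of that genotype, or replicate 2 or 3 of Pole4+/+ Trp53+/+, none was, and without replicate 1 of Pole4+/+ Trp53+/+ only Kif20b was. The median without replicate 3 of Pole4+/+ Trp53-/- was 0.34. The share of all genes called higher was 8.58% without replicate 1 of Pole4+/+ Trp53-/- and 0.654% to 1.78% in the other 5 fits. Kif20a, just inside the threshold, was not called in 5 of the 10 alternative fits (library totals alone, no filter, the replicate block, sex as a covariate and only the libraries compared), and Kif11 in 2 of them (library totals alone and only the libraries compared). A fit of only the libraries compared called 0 of the 10, against 0.158% of all genes called higher.

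The estimated Trp53 effect was larger in Pole4-/- than in Pole4+/+ cells for each member, and the interaction, the difference between the log2 fold changes, tests this directly. It ran from 0.91 (Kif18a) to 1.26 (Kif22) with a median of 1.09, and only Kif11 was called, at 1.05 ± 0.21 (adjusted p = 0.0486), against 0.178% of all genes called higher. The other 9 had adjusted p values of 0.0502 to 0.0665, and all 10 an unadjusted p under 0.05. By role, the interaction was 0.96 ± 0.28 for Kif15, 1.12 ± 0.27 for Kif18b, 1.12 ± 0.29 for Kif2c and 1.25 ± 0.27 for Kif4. For the midzone motors it was 0.92 ± 0.23 for Kif20a, 1.03 ± 0.22 for Kif20b and 1.19 ± 0.31 for Kif23. Kif18a had an SE of 0.25 and Kif22 of 0.27.

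With 9 of the 10 just outside the threshold, the count moved with the fit. DESeq2 and limma voom with quality weights each called 10 of 10, and called 5.82% and 4.9% of all genes higher. A fit with the replicate block called 6 of 10, and 1.58% of all genes higher. The fits with sex as a covariate, with library totals alone or with only the libraries compared called 0 of the 10 and 0 of all genes. Left out singly, replicate 2 or 3 of Pole4+/+ Trp53-/- or replicate 3 of Pole4+/+ Trp53+/+ gave 10 calls, and replicate 1 of Pole4+/+ Trp53-/- gave 5. Leaving out any of the 6 Pole4-/- libraries, or replicate 1 or 2 of Pole4+/+ Trp53+/+, gave 0. The share of all genes called higher was 0.871% to 10.1% in the 4 fits with calls of members and at most 0.0437% in the other 8, so the members' count moved with that of all genes. The median stayed between 0.88 and 1.27 in these 12 fits.

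**Figure D4:**
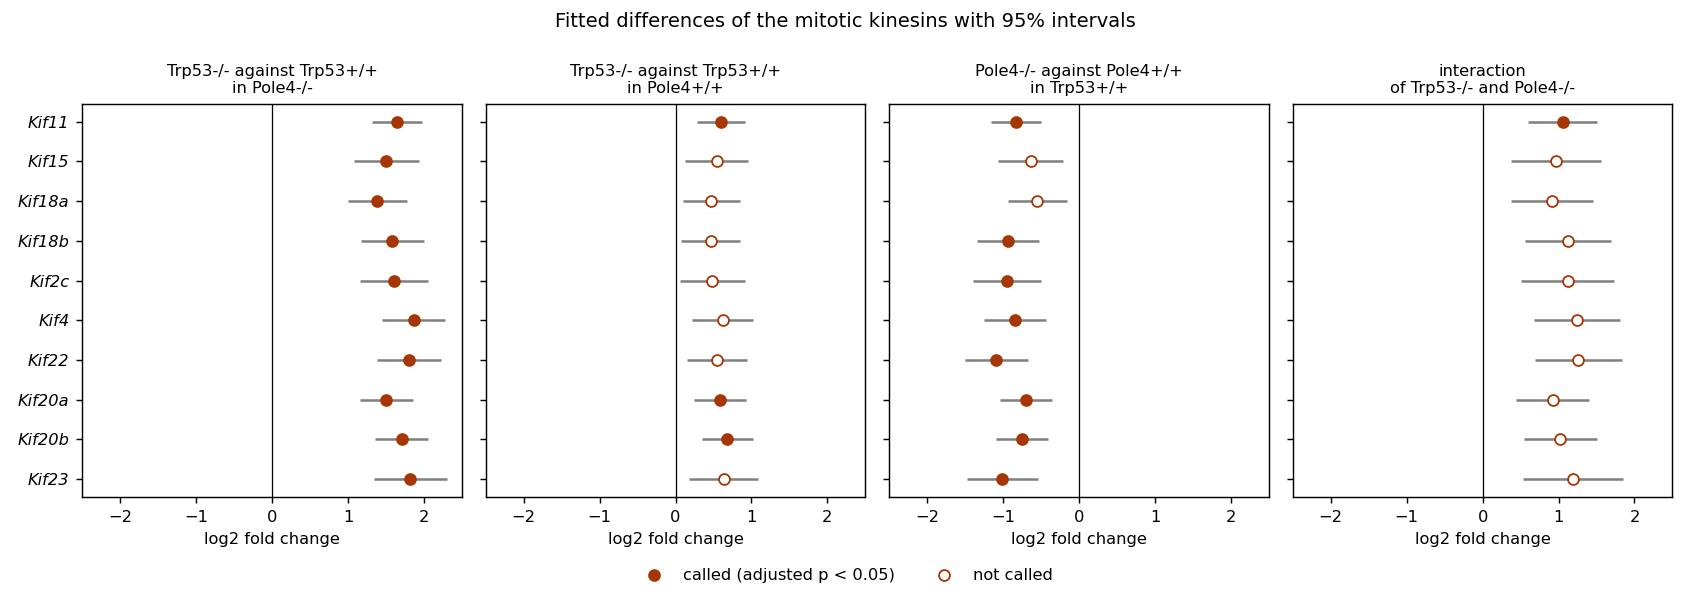
Fitted log2 fold changes (horizontal axis) with 95% intervals for each mitotic kinesin in 3 genotype comparisons and in the interaction of Trp53-/- and Pole4-/-; filled points were called at an adjusted p under 0.05. All intervals lie on the same side of 0 within a panel, 10 members are filled in the first panel, 3 in the next, 8 in the third and 1 (Kif11) in the last.

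Without Pole4 but with Trp53 intact, mitotic kinesins were lower than in cells with both genes. Of the 10 members 8 were called lower, against 2.7% of all genes, and in 9 the libraries did not overlap, against 21.7% of all genes. Log2 fold changes ran from -0.55 (Kif18a) to -1.09 (Kif22), with a median of -0.84 beside 0.01 for all genes. The Pole4-/- Trp53+/+ libraries of this comparison are also the controls of the Trp53 comparison in Pole4-/- cells, so the comparisons are not independent, and the values already given for both genotypes are the ones compared. Fibroblast markers summed to 24894 to 30956 CPM without Pole4 against 16328 to 22003 CPM with it (1 of 10 called higher), and epithelial markers to 2.02 to 2.67 CPM against 2.75 to 6.76 CPM (0 of 2 tested called). The ribosomal RNA share was 7.11% to 42.5% against 5.81% to 11.2%. Their part in the result was not tested.

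Kif22 fell most, from 29.2, 32.0 and 24.3 CPM in Pole4+/+ Trp53+/+ to 12.3 to 14.7 CPM, a log2 fold change of -1.09 ± 0.19 (adjusted p = 0.0185). Kif23 fell from 52.8, 53.9 and 40.9 CPM to 22 to 27.8 CPM, by 1.01 on the log2 scale (adjusted p = 0.0272). Kif2c, at 36.8, 38.3 and 25.7 CPM with Pole4, had -0.95 ± 0.21 (adjusted p = 0.0268). Even its lowest library with Pole4 was above the highest without.

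Kif18b, at 21.7, 19.5 and 17.8 CPM with Pole4, had -0.94 ± 0.19 (adjusted p = 0.022). Kif4, at 43.1, 41.7 and 32.3 CPM with Pole4, had -0.85 ± 0.19 (adjusted p = 0.0297). Kif11 had -0.83 ± 0.15 (adjusted p = 0.0203), Kif20b -0.75 ± 0.16 (adjusted p = 0.0243) and Kif20a -0.70 ± 0.16 (adjusted p = 0.0309). Kif15 had -0.64 ± 0.20 (adjusted p = 0.0755) and was not called although its libraries did not overlap. In Kif18a, at -0.55 ± 0.18 (adjusted p = 0.0846), the 13.7 CPM of replicate 3 without Pole4 exceeded the 11.7 CPM of replicate 3 with it.

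These 8 calls depended on the fit more than the size of the differences did. With sex as a covariate 0 of the 10 were called, with a median of -0.83, and 0.0191% of all genes were called lower, against 2.7% without the covariate. All 3 Pole4+/+ Trp53+/+ libraries were female; the 1 female Pole4-/- Trp53+/+ library had summed members of 234 CPM and the 2 males 235 and 240 CPM, against 350 to 455 CPM in Pole4+/+ Trp53+/+. Without replicate 2 or 3 of Pole4-/- Trp53+/+, or replicate 1 or 2 of Pole4+/+ Trp53+/+, 0 were called, without replicate 1 of Pole4-/- Trp53+/+ 2 were, and without replicate 3 of Pole4+/+ Trp53+/+ 10 were. All genes called lower were 3.7% without replicate 3 of Pole4+/+ Trp53+/+, 0.556% without replicate 1 of Pole4-/- Trp53+/+ and 0.0308% to 0.0621% in the other 4. The median in these 6 fits lay between -0.94 and -0.76.

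In Trp53+/- cells Pole4 genotype went with no call. The 10 log2 fold changes of Pole4-/- against Pole4+/+ ran from -0.38 (Kif18b) to -0.22 (Kif2c), with a median of -0.26; edgeR called 0 of 10 lower, against 0.00637% of all genes, 1 of 10 had an unadjusted p under 0.05, and DESeq2 called 0 and limma voom 1. In Trp53-/- cells they ran from 0.17 (Kif2c) to 0.40 (Kif4), with a median of 0.22; edgeR called 0 of 10 higher, against 0.00637% of all genes, 1 had an unadjusted p under 0.05, and DESeq2 and limma voom called 0. The intervals of the 10 members in Trp53-/- cells reached from -0.27 to 0.80. A fall of the size seen with Trp53 intact lay outside them in this fit, which holds replicate 1 of Pole4+/+ Trp53-/-. Whether the Pole4 difference changes with Trp53 is tested by the interaction above, where only Kif11 was called. Scaled by library totals alone the median in Trp53-/- cells was -0.18, with the median of all genes at -0.44. Without replicate 1 of Pole4+/+ Trp53-/- the members' median was 0.04, and without replicate 3 of that genotype it was 0.41.

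In Pole4-/- cells that had lost 1 Trp53 allele, 8 of the 10 members were called higher than with both alleles, against 2.96% of all genes called higher. The libraries of 9 did not overlap, against 21.4% of all genes. The log2 fold changes ran from 0.23 (Kif18a) to 0.97 (Kif22), with a median of 0.69 beside -0.01 for all genes. Kif22 went from 12.3 to 14.7 CPM up to 25.5, 29.5 and 24.2 CPM (0.97 ± 0.19, adjusted p = 0.0185). Kif23 reached 42.9, 50.9 and 37.5 CPM (0.84 ± 0.22, adjusted p = 0.0427). The lowest Trp53+/- library of either gene lay above the highest with both alleles. The ribosomal RNA share was 3.75% to 15.5% in Pole4-/- Trp53+/- against 7.11% to 42.5% in Pole4-/- Trp53+/+. Epithelial markers summed to 3.90 to 6.47 CPM in Pole4-/- Trp53+/- against 2.02 to 2.67 CPM (0 of 2 tested called). Their part in the result was not tested.

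Among the motors at microtubule ends, Kif2c reached 29.3, 33.7 and 25.9 CPM (0.77 ± 0.21, adjusted p = 0.0463) and Kif18b 16.9, 20.5 and 14.9 CPM (0.76 ± 0.19, adjusted p = 0.0384). Kif4 reached 38.0, 41.7 and 31.1 CPM (0.76 ± 0.19, adjusted p = 0.037), and Kif20a 82.0, 89.9 and 67.2 CPM (0.63 ± 0.16, adjusted p = 0.0402). Kif11 reached 54.6, 66.5 and 53.1 CPM (0.61 ± 0.15, adjusted p = 0.0365) and Kif20b 42.1, 50.1 and 38.2 CPM (0.58 ± 0.16, adjusted p = 0.048). Replicate 2 was the highest Pole4-/- Trp53+/- library in all 10 members. The members not called were Kif15, at 26.6, 29.6 and 24.2 CPM (0.43 ± 0.20, adjusted p = 0.186), and Kif18a, at 11.9, 14.8 and 11.6 CPM (0.23 ± 0.18, adjusted p = 0.434), the member whose libraries overlapped.

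All 8 adjusted p values lay between 0.0185 and 0.048, and calls were lost readily. Without replicate 2 of Pole4-/- Trp53+/- or replicate 2 or 3 of Pole4-/- Trp53+/+ 0 members were called, without replicate 1 of the former 2 and without replicate 1 of the latter 1, and with sex as a covariate 1. Of all genes 2.05% and 0.83% were called higher without these replicates 1, 0.548% with sex as a covariate, and 0.0493% to 0.118% in the 3 fits without calls of members. The median stayed between 0.58 and 0.80 with a library left out and was 0.70 with sex as a covariate.

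Between Pole4-/- cells with 1 Trp53 allele and with none, all 10 were called higher without it, against 6.58% of all genes called higher, and in all 10 the libraries did not overlap, against 19.3% of all genes. Log2 fold changes ran from 0.82 (Kif18b) to 1.15 (Kif18a), with a median of 1.01 beside 0.00 for all genes. Kif18a, which had the smallest difference at the first allele, had the largest here, 1.15 ± 0.18 (adjusted p = 0.0011). Kif15 had 1.08 ± 0.20 (adjusted p = 0.00328), and Kif20b had the lowest adjusted p, 0.00057, at 1.13 ± 0.16. Kif4 had 1.10 ± 0.19, Kif11 1.04 ± 0.15 and Kif23 0.98 ± 0.22. Nearer the low end, Kif20a had 0.88 ± 0.16, Kif2c 0.84 ± 0.20 and Kif22 0.83 ± 0.19, and the adjusted p values of these 6 lay at or under 0.0144. These comparisons share the Pole4-/- Trp53+/- libraries. The ribosomal RNA share was 24.7% to 30.0% in Pole4-/- Trp53-/- against 3.75% to 15.5% in Pole4-/- Trp53+/-, fibroblast markers summed to 13717 to 16519 CPM against 20560 to 26023 CPM (3 of 10 called lower), and skeletal muscle markers to 54.9 to 70.9 CPM against 125 to 203 CPM (2 of 6 called lower). Epithelial markers summed to 4.40 to 20.2 CPM against 3.90 to 6.47 CPM (1 of 2 tested called higher). Their part in the result was not tested. Without replicate 3 of Pole4-/- Trp53+/- or replicate 3 of Pole4-/- Trp53-/- 6 of the 10 were called, with 2.23% and 2.17% of all genes called higher, and with library totals alone 4, with 0.554% of all genes.

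In Pole4+/+ cells neither step was called. For 1 lost allele, the log2 fold changes ran from 0.03 (Kif2c) to 0.20 (Kif18b), with a median of 0.13. That median was 0.02 without replicate 3 of Pole4+/+ Trp53+/+ and 0.20 without replicate 1 of that genotype. The test by edgeR called 0 of 10, against 0.496% of all genes, no member had an unadjusted p under 0.05, DESeq2 and limma voom called 0, and the members' intervals reached from -0.39 to 0.60. For the other allele, the log2 fold changes ran from 0.26 (Kif18b) to 0.60 (Kif20b), with a median of 0.44. There edgeR called 0 of 10 higher, against 0.07% of all genes, 8 members had an unadjusted p under 0.05, DESeq2 called 1 (0.401% of all genes higher) and limma voom 7 (4.67%). Without replicate 1 of Pole4+/+ Trp53-/- 9 were called, with 5.03% of all genes, and the median was 0.63. Without replicate 3 of that genotype the median was 0.23.

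The difference between the Pole4 backgrounds in the effect of 1 lost allele ran from 0.20 (Kif18a) to 0.85 (Kif22), with a median of 0.53. No member was called by edgeR or DESeq2, against 0% of all genes by edgeR, and 6 of the 10 had an unadjusted p under 0.05, while limma voom called 5 and 3.07% of all genes. The step is thus given as values side by side, 0.69 in Pole4-/- and 0.13 in Pole4+/+ as medians of log2 fold changes.

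Of the 6 other kinesins with a spindle role, 5 were tested. All 5 were called higher without Trp53 in Pole4-/- cells (21.8% of all genes were), with a median log2 fold change of 1.43, and 0 of 5 in Pole4+/+ cells (2.23% of all genes), with a median of 0.44. Without replicate 1 of Pole4+/+ Trp53-/-, a fit added for the other lists after the data were seen, 4 of 5 were called in Pole4+/+ cells (8.58% of all genes), with a median of 0.56. Cenpe, the kinetochore motor CENP-E, had 1.61 ± 0.20 and Kif14, a cytokinesis motor that works with citron kinase, 1.54 ± 0.15. Kif24, which regulates cilia at centrioles, had 1.43 ± 0.19.

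The remaining pair had smaller estimates. Kif2a, a depolymerase at spindle poles that resting cells also use, had 0.77 ± 0.11, and Kifc1, a minus-end motor that focuses the poles, had 0.75 ± 0.15. In the mean CPM of Pole4-/- Trp53+/+ against Pole4-/- Trp53-/-, that was 72.8 ± 0.7 against 124 ± 12 for Kif2a and 17.8 ± 1.2 against 29.9 ± 1.0 for Kifc1 (SD, n = 3 each). Kif14 was also called in the interaction, at 1.09 ± 0.21 (adjusted p = 0.0486), and Kif14 and Cenpe were called lower without Pole4 in Trp53+/+ cells. Kif2b, a close relative of Kif2a, had no counts in any library.

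Among kinesins of transport and of other work few were higher. Of 30 on the list 27 were tested: 1 was called higher without Trp53 in Pole4-/- cells and 12 lower, with 14 not called, and the median log2 fold change was -0.35. Of all genes 21.8% were called higher and 20.8% lower there. Kif5c, a conventional kinesin heavy chain, was the 1 called higher (1.43 ± 0.16), and it was also higher in Pole4+/+ cells (1.04 ± 0.15, adjusted p = 0.000941). In Pole4+/+ cells 2 of the 27 were called higher (2.23% of all genes) and 0 lower, with a median of -0.06; the other one was Kif26a, at under 1 CPM in each of these 6 libraries (2.52 ± 0.55, adjusted p = 0.0147). Without replicate 1 of Pole4+/+ Trp53-/- 2 were called higher and 6 lower (8.58% and 8.34% of all genes), with a median of -0.25. In Pole4-/- cells the next was Kif6, at 0.46 ± 0.44 and not called. The lowest were Kif9, at -2.55 ± 0.78 (adjusted p = 0.0153), and Kifc2, at -2.49 ± 0.81 (adjusted p = 0.0215).

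Partners of the members on the spindle were then read. All 11 midzone and cytokinesis partners were called higher without Trp53 in Pole4-/- cells (median 1.73), 3 of 11 in Pole4+/+ cells (median 0.59), and 8 of 11 lower without Pole4 in Trp53+/+ cells (median -0.87). The shares of all genes called in these comparisons were 21.8%, 2.23% and 2.7%. Without replicate 1 of Pole4+/+ Trp53-/- 11 of 11 were called in Pole4+/+ cells (median 0.79), against 8.58% of all genes. The highest were Cdca8, borealin of the chromosome passenger complex, at 1.92 ± 0.22, and Ect2, the exchange factor that starts the cleavage furrow, at 1.89 ± 0.19. The lowest were Incenp, the scaffold of that complex, at 1.37 ± 0.21, and Cit, citron kinase, at 1.41 ± 0.15.

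Of the 10 spindle assembly partners 9 were called higher without Trp53 in Pole4-/- cells (median 1.48) and 2 in Pole4+/+ cells (median 0.53), beside the same 21.8% and 2.23% of all genes. Without replicate 1 of Pole4+/+ Trp53-/- 9 were called in Pole4+/+ cells (median 0.61), against 8.58% of all genes. Aurka, the spindle pole kinase, had 1.74 ± 0.22 and Tacc3, its microtubule-binding substrate, 1.65 ± 0.21. At the low end, Numa1, a nuclear and spindle pole protein, had 0.46 ± 0.09, and Mapre1, the end-binding protein EB1 of interphase and mitotic microtubules, had 0.23 ± 0.11 (adjusted p = 0.103) and was the 1 not called.

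**Figure D5:**
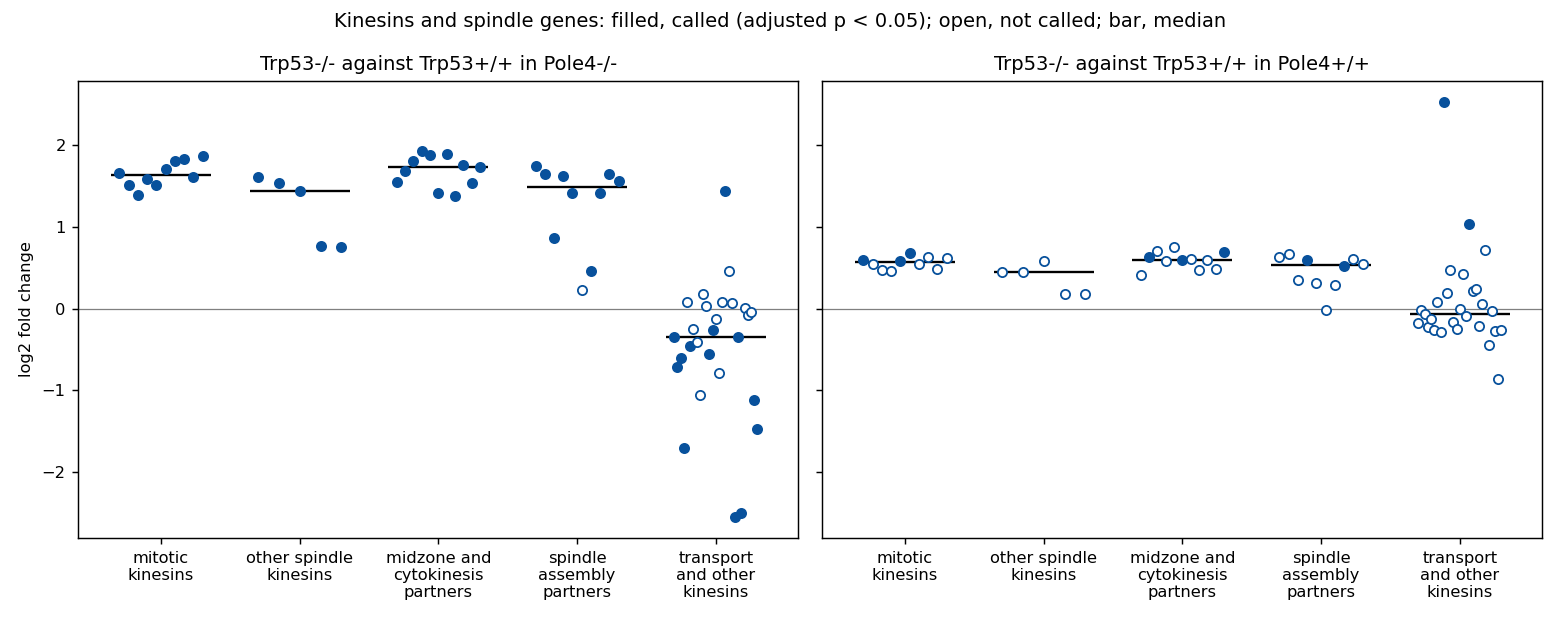
Log2 fold change of Trp53-/- against Trp53+/+ (vertical axis) in Pole4-/- cells, left, and Pole4+/+ cells, right, for the mitotic kinesins and for 4 other lists, with 1 point per tested gene, filled where called, and a bar at the median. On the left the 10 mitotic kinesins lie between 1.39 and 1.87, and the 27 transport and other kinesins mostly lie at or below 0.

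The members' profiles over the 18 libraries were close to each other. Likeness was measured as the root mean square difference of log2 CPM after each gene's own mean was removed, and is given as a description, since the libraries are shared. The nearest pair was Kif11 and Kif20b, at 0.08, and the farthest Kif18a and Kif22, at 0.31. Against the mean profile of the 10, Kif11 was nearest at 0.05 and Kif18a farthest at 0.20, while the median over all tested genes was 0.65.

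Among genes that are not members, Mki67 was nearest to that mean profile, at 0.04, nearer than any member. It was followed by Tpx2, which brings Aurka to the spindle (0.05), Top2a, the topoisomerase that untangles sister chromosomes (0.07), Ncapg2 of condensin II (0.07) and Lig1, the replicative DNA ligase (0.07). Cenpe, Tmpo, Ccnb1, Arhgap11a and Dlgap5 came next, at 0.07 to 0.08. Of the tested genes outside the list 242 were nearer to the mean profile than Kif18a, the farthest member.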

How the data were processed

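RNA from 18 MEF cultures was amplified to cDNA with an Ovation kit not stated to keep strand and sequenced in 100-base read pairs. Per the labels' processing notes and the methods, the authors aligned trimmed reads to GRCm38 with STAR 2.5.2 and deposited RSEM 1.3.0 expected counts per gene, not normalised or pooled, of which 6.14% are not whole; they were rounded here. The authors' own tests (DESeq2 1.10.1 in the labels) were not used. Genes were filtered with filterByExpr, scaled by TMM and tested with edgeR 4.0.16 in R 4.3.3 (robust quasi-likelihood F-test). The fit had a mean for each of the 6 genotypes and 12 residual degrees of freedom, and p-values were adjusted by Benjamini-Hochberg over 15710 genes. The 9 pairs of genotypes that differ in 1 gene were compared, with 2 interactions. Each SE was obtained by dividing the absolute log2 fold change by the square root of F, intervals are at 95%, and log2 CPM used a prior count of 2.

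Symbols, positions and exon lengths came from GENCODE's annotation of GRCm38, which held 51633 of the 51912 identifiers. The pseudogenes Kif22-ps and Kif4-ps held 0 counts in every library. The members, lists and tests were chosen with earlier results of these data known. All members were named in both comparisons of Trp53-/- with Trp53+/+ and in their interaction, and elsewhere the lowest, the highest and every called one. Every other spindle kinesin was named, from longer lists the 2 highest and 2 lowest in Pole4-/- cells, the 3 genes of the genotype check (Trp53, Cdkn1a and Pole4) and the 10 nearest profiles; genes named for exon overlap and further values were added after they were seen. Cultures were started from single embryos, but the embryo behind each library is not given, so p-values measure the spread between these libraries. No 2 libraries of the same genotype agreed within sampling noise (lowest chi-square per degree of freedom 20.2).

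On simulated counts for Trp53-/- against Trp53+/+ in Pole4-/- cells (15190 genes), 40 of 41 genes at 10 CPM or more changed by 1.6 on the log2 scale were recovered, and 19 of 60 changed by 0.6. Alternatives were DESeq2 1.42.0, limma 3.58.1 voom, other scalings and filters, sex as a covariate, a replicate block, a fit of only the libraries compared, and leaving out each library.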

Additional observations from a re-analysis of the deposited data

Results flagged for a closer look

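The effect of losing both Trp53 alleles on Kif11 differed between the Pole4 backgrounds by the test of the difference itself. The interaction was 1.05 on the log2 scale (SE 0.21, adjusted p = 0.0486 by edgeR's quasi-likelihood test), with log2 fold changes of 1.65 in Pole4-/- and 0.60 in Pole4+/+ cells. Without Trp53, Kif11 exceeded every control library in 3 of 3 cultures lacking Pole4 and in 2 of 3 cultures that had it. Over 10 alternative fits it ran from 0.94 to 1.12, with adjusted p values from 0.000986 to 0.175, and with 1 library left out from 0.87 to 1.20, called in 4 of 12 fits.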

How the results depend on the processing

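No alternative turned the direction of any member in either comparison of Trp53-/- with Trp53+/+ or in their interaction. The members' median kept its direction in every comparison with calls. Genes of the other lists were not followed through the alternatives, apart from the fit added for them in Pole4+/+ cells. All 10 members were called higher in Pole4-/- Trp53-/- than in Pole4-/- Trp53+/+ under each alternative and with any 1 library left out. The shares of all genes called higher were 11.1% to 26.4% and 17% to 19.9% in these fits. Scaling by library totals alone shifted the median of all genes by 0.29 (Trp53+/- against Trp53+/+ in Pole4-/-), -0.33 (Trp53-/- against Trp53+/- in Pole4-/-), -0.29 (Pole4-/- against Pole4+/+ in Trp53+/+) and -0.42 (the same in Trp53-/-), and there the medians of the members were 0.99, 0.69, -1.12 and -0.18; in the interaction of Trp53+/- and Pole4-/- the shift was 0.31 and the members' median 0.82. With that scaling the share of all calls that were higher was 97%, 6.95% and 2.54% in the first 3 of these comparisons, against 57.8%, 52.7% and 32.3%. The threshold counts mostly moved more than the fold changes. With 1 library left out, the medians all shifted by less than the spread between libraries (SD 0.23). That bound is loose, since leaving out 1 of 3 libraries seldom shifts a mean further, and small medians changed by much of their size.

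In the interaction of Trp53-/- and Pole4-/-, where 1 member was called, 10 were called by DESeq2 and by limma voom (5.82% and 4.9% of all genes called higher, against 0.178%), 8 without a filter or with a mean of at least 50 counts (0.859% and 2.22%), 6 with upper-quartile scaling or with ribosomal RNA genes left out of the scaling (0.993% and 1.27%), and 0 with library totals alone, sex as a covariate or only the libraries compared (0%). For Trp53-/- against Trp53+/+ in Pole4+/+ cells (3 called) limma voom called 9 (11% of all genes higher, against 2.23%), library totals alone 1 (0.586%) and only the libraries compared 0 (0.158%). For Trp53-/- against Trp53+/- in Pole4+/+ cells (0 called) DESeq2 called 1 (0.401%) and limma voom 7 (4.67%); in Pole4-/- cells (10 called) library totals alone called 4 (0.554%). Limma voom called 1 lower for Pole4-/- against Pole4+/+ in Trp53+/- cells (0.885% of all genes lower) and 5 higher in the interaction of Trp53+/- and Pole4-/- (3.07%), where 0 were called. With sex as a covariate 1 member was called for Trp53+/- against Trp53+/+ in Pole4-/- cells (8 called; 0.548% of all genes higher) and 0 for Pole4-/- against Pole4+/+ in Trp53+/+ cells (8 called, 0.0191% of all genes lower). The cause was not tested.

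With 1 library left out, the calls of members ranged from 0 to 9 for Trp53-/- against Trp53+/+ (0.654% to 8.58% of all genes in the same direction) and from 0 to 9 for Trp53-/- against Trp53+/- in Pole4+/+ cells (0.00616% to 5.03%). In Pole4-/- cells they ranged from 0 to 8 for Trp53+/- against Trp53+/+ (0.0493% to 2.57%) and from 6 to 10 for Trp53-/- against Trp53+/- (2.17% to 5.98%). They ranged from 0 to 10 for Pole4-/- against Pole4+/+ in Trp53+/+ cells (0.0308% to 3.7%) and in the interaction of Trp53-/- and Pole4-/- (0% to 10.1%).

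Replicate numbers are not said to link cultures, so the main fit did not take them as pairs. Of 45 pairs of same-numbered libraries 22 had correlated deviations above 0.1 (range -0.26 to 0.59). In replicate 2 the pairs among Pole4-/- Trp53+/- and the Pole4+/+ genotypes had 0.38 to 0.59, and all other pairs lay between -0.26 and 0.33. Pairs of different numbers were not measured, and whether same-numbered libraries share a batch was not tested. With the replicate block, 6 members were called in the interaction of Trp53-/- and Pole4-/- (1.58% of all genes called higher), and no other count of members moved by more than 1.5 times.

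On simulated counts with 100 genes changed by 0.6 and 100 by 1.6 on the log2 scale, changes of 0.6 were often missed. The same comparison of the data called 6699 genes, which loosens the threshold on p. The simulated share missed thus does not carry over to the data.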
